A study of Mus musculus with 4 samples.

Results

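Genes of thyroid hormone signaling were read from RNA-seq of mouse hearts on postnatal day 7 (P7), and 8 of the 24454 genes in the count table were taken by symbol. They are the receptor genes *Thra* and *Thrb*, the deiodinase genes *Dio2* and *Dio3*, the transporter gene *Slc16a10* and the response genes *Klf9*, *Hr* and *Thrsp*. Of these, 7 had enough reads to be tested and *Dio3* did not. Relative to Ctrl hearts, *Thrsp* and *Hr* were higher in miR-128OE hearts, 2.51-fold and 1.59-fold, and *Thra* was 1.23-fold lower. The differences of *Thrb*, *Dio2*, *Slc16a10* and *Klf9* did not pass the threshold.

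The miR-128OE hearts came from α-MHC-tTA; miR-128TetRE mice, in which the transactivator tTA is made in cardiomyocytes (CMs) from the α-myosin heavy chain promoter and turns on *miR-128* once doxycycline is withdrawn. The Ctrl hearts came from miR-128TetRE mice, so both groups carried the *miR-128* cassette in the *Rosa26* locus and the tTA transgene was in miR-128OE mice alone. There were 2 Ctrl libraries (WH7 and WH8) and 2 miR-128OE libraries (WH9 and WH10), with 8096870 to 14359838 counts each. The sources used here do not say whether a library is 1 heart or a pool, which part of the heart was taken, or when doxycycline was withdrawn for these hearts.

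Thyroid hormone reaches the heart mainly as the prohormone T4 and as the active hormone T3, which enter cells through membrane transporters such as that of *Slc16a10* (MCT10). The deiodinase of *Dio2* turns T4 into T3, and that of *Dio3* inactivates both hormones. T3 binds the nuclear receptors of *Thra* and *Thrb*, which sit on DNA with a retinoid X receptor, hold corepressors without hormone and recruit coactivators with it. In rodents circulating T3 rises after birth and drives the switch from β-myosin (*Myh7*) to α-myosin heavy chain (*Myh6*), so the promoter that drives tTA here is itself that of a classical T3-induced gene.

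Seed matches of *miR-128* were searched in the 3′UTRs of the members because that miRNA is the one overexpressed in these hearts. The mature sequence from RefSeq (GRCm38.p6) is the same from *Mir128-1* on chromosome 1 and *Mir128-2* on chromosome 9, and its seed, bases 2 to 8, is in capitals.
miR-128-3p: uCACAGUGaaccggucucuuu
Of the 8 members, *Thrb*, *Dio2* and *Slc16a10* carried a match in their longest GENCODE 3′UTR. In the lines that follow, the match is in capitals with 8 bases on each side, read 5′ to 3′ on the strand of the gene, and positions are those of GRCm38.
*Thrb* 8mer at chr14:18035211-18035218, plus strand: aaggaagtCACTGTGAaaagcaag
*Thrb* 7mer-m8 at chr14:18036362-18036368, plus strand: acctgctcCACTGTGgggagata
*Thrb* 7mer-A1 at chr14:18037191-18037197, plus strand: tttattgtACTGTGAtatagata
*Dio2* 7mer-m8 at chr12:90727096-90727102, minus strand: gaatcttaCACTGTGtagaatgg
*Dio2* 7mer-A1 at chr12:90725819-90725825, minus strand: ggaaattgACTGTGAgtctttaa
*Slc16a10* 7mer-m8 at chr10:40036786-40036792, minus strand: ttttgttcCACTGTGttactttc
The 3 *Thrb* matches lie in a 3′UTR of 4424 bases, the *Dio2* matches in one of 4860 bases and the *Slc16a10* match in one of 3640 bases. The 3′UTRs of *Thra*, *Dio3*, *Hr* and *Thrsp* are shorter, at 583 to 1244 bases, and held 0 matches, as did that of *Klf9* with 3222 bases. Over all 13339 tested genes with a 3′UTR, 33.2% carried at least 1 match. A match is a description of the letters and no evidence of binding.

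Each gene was compared between miR-128OE and Ctrl hearts with edgeR's quasi-likelihood test over 14266 genes, with Benjamini-Hochberg adjustment and a threshold of 0.05. Of the 7 tested members, 2 were higher and 1 was lower, and over all tested genes 31.5% were called, 16.5% as higher and 15% as lower. In 6 of the 7 tested members both miR-128OE libraries lay on one side of both Ctrl libraries, and this held for 68.1% of all tested genes. Values per library are normalized counts, that is, counts after TMM scaling brought to the mean effective library size, and a difference is the log2 fold change of miR-128OE over Ctrl with its standard error (SE). With 2 libraries a group, p-values rest on the spread between these libraries, which for each gene is largely estimated from other genes (7.436 of 9.436 degrees of freedom).

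Some properties of the libraries move with the groups. Both Ctrl libraries had high *Xist* (14543 and 11339 counts) and both miR-128OE libraries had high *Ddx3y* (1442 and 1768 counts), so sex and group cannot be told apart, and neither can tTA and *miR-128*. *Mir128-2* had 0 counts in both Ctrl libraries and 2 and 10 in WH9 and WH10, and *Mir128-1* had 0 in every library, which was not tested. The 10 defining CM markers were abundant in every library, with a summed level of 49175 and 53324 CPM (counts relative to the effective library size) in WH7 and WH8 against 60092 and 59306 in WH9 and WH10, and 4 of them (*Actn2*, *Myh6*, *Pln* and *Tnnc1*) were higher and 2 (*Ryr2* and *Ttn*) lower. Of 8 mural cell markers 3 were higher and 1 lower, with sums of 1947 and 1920 against 2516 and 2732 CPM. The part of these cell types in the members' values was not tested. Summed atrial markers ranged from 743 CPM in WH8 to 6020 CPM in WH7. In bulk hearts, fewer cells of a type and less RNA per cell cannot be told apart.

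**Figure D1:**
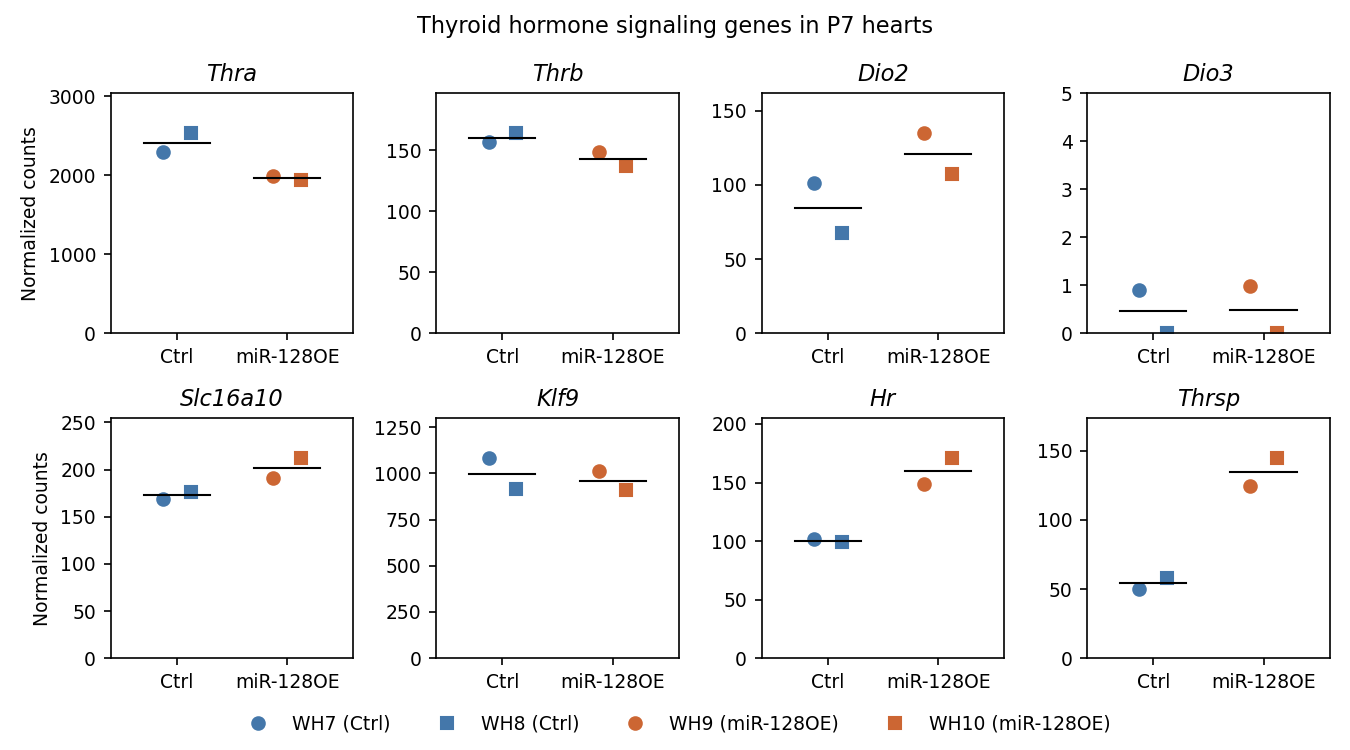
Normalized counts (vertical axes, each from 0) of the 8 members in Ctrl (WH7, WH8) and miR-128OE (WH9, WH10) libraries; points are libraries and horizontal lines are group means. *Thrsp* and *Hr* sit higher and *Thra* lower in both miR-128OE libraries, *Klf9* overlaps, and *Dio3* is at 1 count or fewer.

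The receptor gene *Thra* (Entrez Gene 21833, chromosome 11 of GRCm38, 98740638 to 98769006, plus strand) encodes the hormone-binding receptor TRα1, the main receptor of CMs, and the splice variant TRα2, which does not bind T3. It had 2295 and 2530 normalized counts in WH7 and WH8, and 1994 and 1935 in WH9 and WH10. Both miR-128OE libraries were thus below both Ctrl libraries, and the means were 2413 ± 166 (SD, n = 2) against 1965 ± 41.5 (SD, n = 2). *Thra* fell, with a log2 fold change of −0.30 (SE 0.08, adjusted p = 0.0228 from the edgeR test). Leaving out WH9 or WH10 ended the call, with adjusted p-values of 0.16 and 0.203 at log2 fold changes of −0.30 and −0.26. The last part of *Thra* overlaps exons of *Nr1d1*, which encodes the clock repressor REV-ERBα, on the opposite strand over 263 bases, 5.7% of the exons of *Thra*. The handling of strand is not given in the sources used here, so reads there cannot be assigned to one gene, and TRα1 and TRα2 are not separated by counts per gene. *Nr1d1* had far fewer reads, with 300 and 143 counts in WH7 and WH8 against 356 and 365 in WH9 and WH10, and its log2 fold change was 0.45 (adjusted p = 0.0549, and 0.00326 without WH7).

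*Thrb* (Entrez Gene 21834, chromosome 14, 17660261 to 18038090, plus strand) encodes TRβ, the receptor best known from liver and pituitary. WH7 and WH8 held 157 and 164 normalized counts, and WH9 and WH10 held 149 and 137. The groups did not overlap, but the difference was within counting and replicate error, with a log2 fold change of −0.17 (SE 0.15, 95% interval −0.51 to 0.17, adjusted p = 0.429). The 3 seed matches shown above lie in this gene and *Thra* held 0. The intervals of the 2 receptor genes overlapped, since that of *Thra* was −0.48 to −0.11.

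Per kb of exon, *Thra* stood far above *Thrb*. In CPM per kb, *Thra* was at 42.3 and 46.6 in Ctrl and 36.7 and 35.6 in miR-128OE libraries, and *Thrb* at 1.81 and 1.88 and at 1.70 and 1.57. *Thrb* therefore made up 4.10% and 3.88% of the receptor level per length in WH7 and WH8 and 4.44% and 4.23% in WH9 and WH10. The 95% exact (Clopper-Pearson) intervals, which cover counting error only, were 3.51 to 4.75 and 3.21 to 4.65 in Ctrl and 3.76 to 5.20 and 3.61 to 4.92 in miR-128OE libraries. They overlapped in all 4 libraries. The mean share was 3.99% ± 0.151 (SD, n = 2) for Ctrl against 4.33% ± 0.147 (SD, n = 2) for miR-128OE hearts, a difference of 0.343 percentage points (p = 0.333, two-sided exact permutation test, the smallest p that 2 against 2 libraries allow).

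The retinoid X receptors are the partners of both thyroid hormone receptors on DNA. Of the 5 receptor and partner genes, 1 was higher and 1 was lower. *Rxrg* rose from 102 and 117 to 161 and 177 normalized counts, with a log2 fold change of 0.64 (SE 0.17, adjusted p = 0.0171). This call was lost without WH9 (adjusted p = 0.069) or WH10 (0.118) and with DESeq2 (0.0596). *Rxra* (log2 fold change −0.06, edgeR adjusted p = 0.692) and *Rxrb* (−0.21, 0.117) missed the threshold, although *Rxrb* reached 0.0377 when libraries were scaled by total counts.

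The transporter gene *Slc16a10* (Entrez Gene 72472, chromosome 10, 40033532 to 40142258, minus strand) encodes MCT10, which carries aromatic amino acids and thyroid hormone. Its normalized counts were 169 and 177 in WH7 and WH8 and 191 and 212 in WH9 and WH10. Both miR-128OE libraries were the higher ones, but the log2 fold change of 0.23 did not pass the threshold (SE 0.14, 95% interval −0.09 to 0.54, adjusted p = 0.251).

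Among 9 transporter genes, 8 were tested. None was higher (0 by edgeR or DESeq2, and 2, *Slc7a5* and *Slc3a2*, at an unadjusted p under 0.05) and 2 were lower. The list's median log2 fold change was −0.15 against −0.01 for all tested genes. The lower genes included *Slc10a1*, a bile acid carrier of liver that also takes up thyroid hormone, with only 29 and 19 counts in WH7 and WH8 against 8 and 9 in WH9 and WH10. Its log2 fold change was −1.77 (SE 0.41, adjusted p = 0.0104), which was lost without WH9 (adjusted p = 0.0992) or WH10 (0.0984). *Slc7a5* and *Slc3a2*, the light and heavy chains of the LAT1 amino acid carrier, had log2 fold changes of 0.40 and 0.26 (edgeR adjusted p = 0.0672 and 0.098, the latter 0.0284 without WH7). *Slc7a8* (−0.74), *Slco1a4* (−0.57) and *Slco1c1* (0.13) did not pass the threshold either, and *Slc17a4* had 0 counts in every library.

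The activating deiodinase gene *Dio2* (Entrez Gene 13371, chromosome 12, 90724552 to 90738438, minus strand) had 102 and 67.8 normalized counts in WH7 and WH8 and 135 and 108 in WH9 and WH10. The Ctrl libraries differed from each other more than WH7 differed from WH10. The log2 fold change of 0.48 did not pass the threshold (SE 0.23, 95% interval −0.04 to 1.00, adjusted p = 0.142). Without WH7 it was 0.83 with an adjusted p of 0.0233, so the call turned on that library. *Dio2* has 100 bases of exon overlap with the lncRNA *Gm26512* on the opposite strand, 1.72% of its exons.

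The inactivating deiodinase gene *Dio3* (Entrez Gene 107585, chromosome 12, 110279068 to 110281097, plus strand), which is high in fetal tissues, had 1, 0, 1 and 0 counts in WH7 to WH10. This is under the floor of 3 counts in each library, which corresponds to 0.209 to 0.371 CPM, so a difference was not detectable at this depth. *Dio1*, the deiodinase of liver and kidney, had 0 counts in all 4 libraries, which allows up to the same floor.

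Deiodinase genes and genes that handle the hormone or serve the synthesis of selenium-containing proteins mostly missed the threshold. Of 11 such genes, 8 were tested, of which 2 were lower and none passed as higher (0 by edgeR or DESeq2, and 3, *Sephs2*, *Eefsec* and *Ttr*, at an unadjusted p under 0.05, of which the edgeR exact test called *Sephs2* at an adjusted p of 0.0393). Their median log2 fold change was 0.22. *Sult1a1*, a sulfotransferase that also acts on thyroid hormones, fell from 363 and 428 to 227 and 220 normalized counts, with a log2 fold change of −0.82 (SE 0.13, adjusted p = 0.00146), and stayed past the threshold in every alternative fit. *Secisbp2*, whose product lets ribosomes read UGA as selenocysteine, had a log2 fold change of −0.39 (SE 0.12, adjusted p = 0.0329). That call was lost without WH8 (adjusted p = 0.108), WH9 (0.268) or WH10 (0.0737) and with DESeq2 (0.0601).

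**Figure D2:**
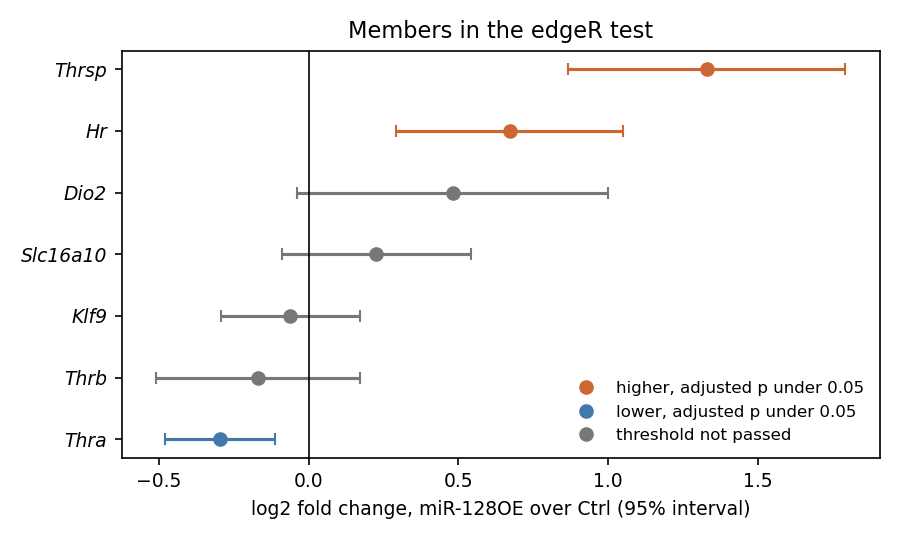
Log2 fold change of miR-128OE over Ctrl (horizontal axis) for the 7 tested members, with 95% intervals from the edgeR fit as bars. The intervals of *Thrsp*, *Hr* and *Thra* lie on one side of 0 and those of the other 4 genes cross it.

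The response gene *Thrsp* (Entrez Gene 21835, chromosome 7, 97412938 to 97417730, minus strand) encodes Spot14, a nuclear regulator of fatty acid synthesis that T3 induces in liver and fat. It had 50.3 and 57.9 normalized counts in WH7 and WH8 and 125 and 145 in WH9 and WH10. The lowest miR-128OE library was above the highest Ctrl library by far more than the replicates differed, with means of 54.1 ± 5.41 (SD, n = 2) and 135 ± 14.1 (SD, n = 2). *Thrsp* rose with a log2 fold change of 1.33 (SE 0.21, adjusted p = 0.00153). It was the member with the smallest p-value, at rank 902 of 14266, and the call held in all 10 alternative fits, with log2 fold changes of 1.22 to 1.44.

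Adipocyte markers were read beside *Thrsp*. Of 8 such markers 5 were tested and 3 were higher, with a median log2 fold change of 0.87, and their summed level was 35.3 and 35.2 CPM in Ctrl and 73.7 and 56.7 CPM in miR-128OE libraries. *Ucp1*, which defines brown fat, had 56 and 3 counts in WH7 and WH8 against 253 and 189 in WH9 and WH10, with a log2 fold change of 2.69 (SE 0.51, adjusted p = 0.00418, and 0.129 with DESeq2). *Adipoq*, which encodes adiponectin, had 16 and 13 counts against 34 and 45, and *Cidea*, a lipid droplet protein gene of brown fat, rose by 0.51 on the log2 scale. The calls of *Adipoq* and *Cidea* were lost without WH7 (adjusted p = 0.135 and 0.0602) or WH9 (0.139 and 0.236), and that of *Adipoq* also without WH10 (0.192) and with DESeq2 (0.149). *Plin1*, the perilipin gene of lipid droplets (0.87, adjusted p = 0.105), and *Cidec* (0.18, adjusted p = 0.777) missed the threshold, and the untested markers *Lep*, *Cfd* and *Retn* were at 11 counts or fewer in every library. *Dio2* is also a known gene of brown fat, and the part of adipose tissue in the values of *Thrsp* and *Dio2* was not tested.

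*Hr* (Entrez Gene 15460, chromosome 14, 70552212 to 70573548, plus strand) encodes Hairless, a corepressor of the thyroid hormone receptor whose gene T3 induces directly in brain. Normalized counts were 102 and 98.9 in WH7 and WH8, and 149 and 171 in WH9 and WH10. The Ctrl libraries were nearly equal and both miR-128OE libraries were above them, with means of 100.2 ± 1.82 (SD, n = 2) and 160 ± 15.7 (SD, n = 2). *Hr* rose with a log2 fold change of 0.67 (SE 0.17, adjusted p = 0.0149). The call was lost in 3 of the alternative fits, with adjusted p-values of 0.0509 with DESeq2, 0.0531 without WH9 and 0.124 without WH10.

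*Klf9* (Entrez Gene 16601, chromosome 19, 23141226 to 23168134, plus strand) encodes a Krüppel-like transcription factor and is among the most widely shared T3-induced genes. WH7 and WH8 held 1082 and 914 normalized counts and WH9 and WH10 held 1013 and 908. It was the only tested member whose groups overlapped, with a log2 fold change of −0.06 (SE 0.10, 95% interval −0.29 to 0.17, adjusted p = 0.685). The interval leaves out a rise of the size seen for *Hr* or *Thrsp*. The sign was not fixed, since the log2 fold change was 0.07 without WH7 and 0.03 without WH10.

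*Klf9* is also induced by glucocorticoids and follows the clock, so genes of both systems were read beside it. Of 12 glucocorticoid response genes 9 were higher and 1 was lower, and the median log2 fold change was 0.49. Of the 9, *Per1*, *Tsc22d3*, *Klf15* and *Cdkn1a* lost their calls without WH9, at log2 fold changes of 0.27, 0.26, 0.71 and 0.45. The lower gene *Lcn2* (−0.90) lost its call there too, and *Errfi1* (0.47) lost its call without WH10. With DESeq2, *Per1*, *Klf15* and *Lcn2* missed the threshold (adjusted p = 0.079, 0.108 and 0.13). With scaling by total counts in edgeR, *Per1*, *Tsc22d3* and *Klf15* missed it (adjusted p = 0.0811, 0.0567 and 0.0562). The 3 with the smallest p-values were *Sgk1*, a kinase of ion transport (1.15), *Zbtb16*, a zinc finger repressor (1.85), and *Mt1*, a metallothionein (0.86), and all 3 stayed past the threshold in every alternative fit. *Fkbp5*, a chaperone that is commonly used as a glucocorticoid readout, missed the threshold at −0.11 (edgeR adjusted p = 0.61). Of 15 clock genes 4 were higher and 4 lower, and the median was 0.06. Of these 8 calls, *Tef*, *Ciart*, *Per1*, *Cry1* and *Arntl* were lost without WH9 (adjusted p = 0.112, 0.0684, 0.273, 0.173 and 0.138). *Per3* (−0.58) and *Nr1d2* (−0.50) fell and *Cry2* (0.57) rose. The part of these systems in the level of *Klf9* was not tested.

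**Figure D3:**
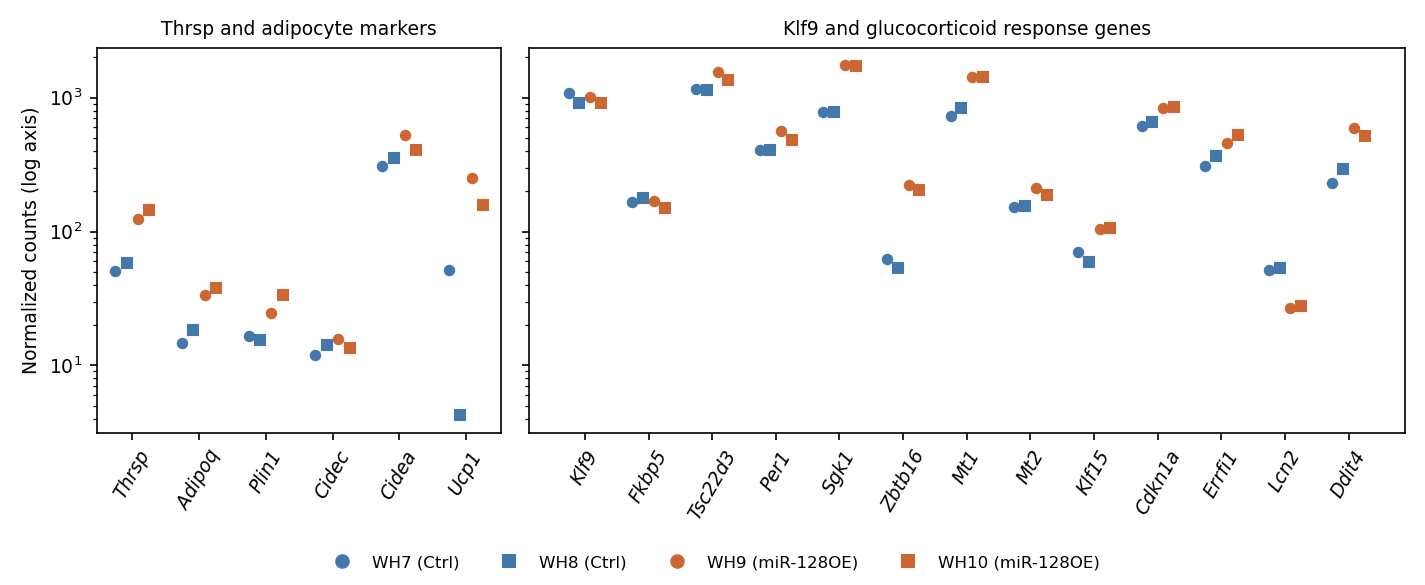
Normalized counts (shared logarithmic vertical axis) per library for *Thrsp* beside the 5 tested adipocyte markers and for *Klf9* beside the 12 glucocorticoid response genes. *Thrsp*, *Adipoq*, *Plin1*, *Cidea* and *Ucp1* are higher in both miR-128OE libraries, and *Klf9* overlaps between groups while *Sgk1*, *Zbtb16* and *Mt1* do not.

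Ordered by their level per length in Ctrl hearts, the members fell into 3 tiers. *Thra* (42.3 and 46.6 CPM per kb) stood above *Klf9* (19.1 and 16.1), and these in turn stood above all others. The ranges of *Thrsp* (1.95 and 2.25) and *Slc16a10* (1.95 and 2.04) overlapped, *Thrb* (1.81 and 1.88) lay just under them, and *Dio2* (1.48 and 0.991) overlapped with *Hr* (1.25 and 1.22). In miR-128OE hearts *Thrsp* was at 4.84 and 5.61 CPM per kb and no longer overlapped with *Slc16a10* (2.21 and 2.45), while *Hr* (1.82 and 2.10) overlapped with *Dio2* (1.97 and 1.57).

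**Figure D4:**
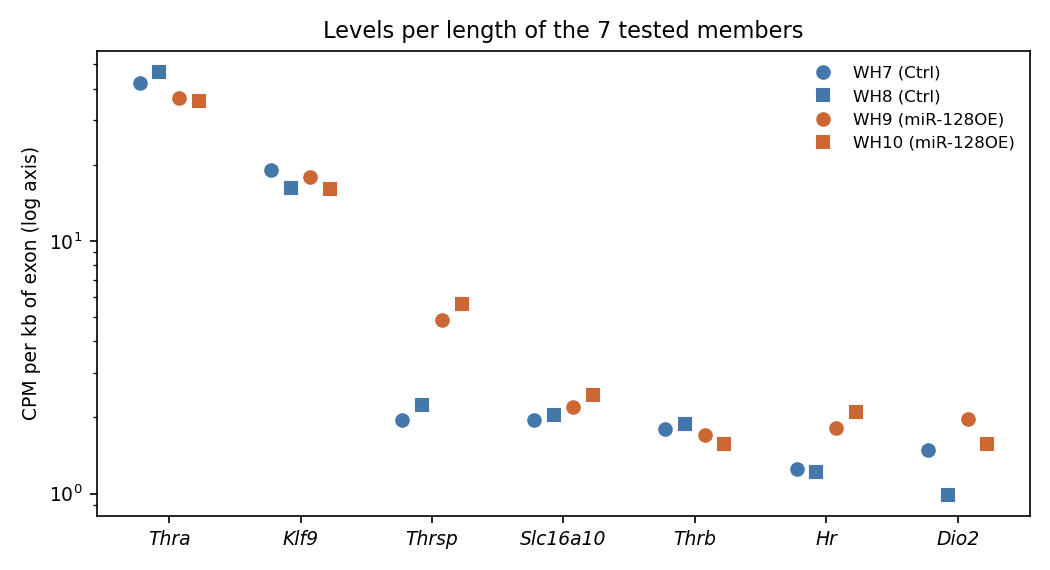
CPM per kb of exon (logarithmic vertical axis) of the 7 tested members in each library, ordered by their mean. *Thra* and *Klf9* lie above 10 CPM per kb in every library and the other 5 genes between 0.991 and 5.61.

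For each tested member, the closest pattern was sought among the other 71 tested genes of the thyroid hormone lists, as the Euclidean distance between centred log2 CPM values over 4 libraries. It was *Ryr2* for *Thra* (distance 0.118), *Tnni1* for *Thrb* (0.058), *Atp2a2* for *Dio2* (0.303) and *Fasn* for *Slc16a10* (0.108). It was *Hdac2* for *Klf9* (0.171), *Rxrg* for *Hr* (0.172) and *Myh7* for *Thrsp* (0.367). With 4 libraries these distances are a description.

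The rest of the pathway was described by 8 lists compiled by symbol, which held 68 further genes, 65 of them tested. Calls were made for 17 as higher and 14 as lower (47.7%, against 31.5% of all tested genes). The median log2 fold change was 0.07, against −0.01 for all tested genes. The calls thus went both ways. These lists were chosen with earlier results of these data known, so their larger share of calls is a description and no test of the pathway.

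The corepressor genes, whose products hold unliganded receptors silent, held more lower than higher calls. Of 9 genes 1 was higher and 4 lower, and the median log2 fold change was −0.17. *Hdac1*, a histone deacetylase, fell by 0.72 on the log2 scale (SE 0.09, adjusted p = 0.000482). *Ncor1*, the main corepressor of the thyroid hormone receptor, fell from 3882 and 4061 to 2664 and 2548 normalized counts, with a log2 fold change of −0.61 (SE 0.08, adjusted p = 0.000618). *Tbl1x*, a subunit of the NCoR complex, had −0.68 (SE 0.11, adjusted p = 0.00158), and the calls of these 3 genes held in every alternative fit. *Gps2*, another subunit, named after its value was seen, had −0.41 (adjusted p = 0.00899, and 0.141 without WH9). *Hdac3*, the deacetylase of the NCoR complex, had −0.03 (adjusted p = 0.851).

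Of 11 coactivator genes 2 were higher and 3 lower, and the median log2 fold change was −0.12. *Crebbp*, a histone acetyltransferase, fell by 0.66 (SE 0.09, adjusted p = 0.00096), and *Ncoa3*, a p160 coactivator, fell by 0.48 (SE 0.10, adjusted p = 0.00605), the latter call being lost without WH9 (adjusted p = 0.0896). *Med1*, the Mediator subunit that binds nuclear receptors, rose by 0.52 (SE 0.09, adjusted p = 0.00218). The remaining calls, named after their values were seen, were the coactivators of mitochondrial genes *Ppargc1a* (0.44, adjusted p = 0.0149) and *Ppargc1b* (−0.40, adjusted p = 0.00871), both lost without WH9 (0.142 and 0.13).

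Among 11 genes that T3 induces in many tissues, 3 of them members, 10 were tested. The higher genes numbered 6 and the lower 1, and the median log2 fold change was 0.59. *Ucp2*, a mitochondrial carrier, rose from 3053 and 3235 to 6181 and 5702 normalized counts, with a log2 fold change of 0.92 (SE 0.09, adjusted p = 0.000129). *Me1*, malic enzyme, rose by 0.56 (SE 0.10, adjusted p = 0.00299, and 0.052 without WH9). Outside the naming rule, *Bcl3* (0.93) and *Pdk4* (0.61) were higher and *Ucp3* (−0.77) was lower. Without WH9, 3 genes of the list were called, and with DESeq2 4 were. *Pdk4* was lost without WH9 (adjusted p = 0.177), *Bcl3* without WH10 (0.0578), and *Ucp3* without WH9 (0.106) or WH10 (0.057).

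Cardiac genes that T3 is known to raise were then read. Of 16 such genes 7 were higher and 3 lower, and the median log2 fold change was 0.28. *Atp1b1*, a subunit of the sodium pump, rose by 1.29, and *Slc2a4*, the insulin-responsive glucose transporter GLUT4, rose by 0.91 (edgeR adjusted p = 7.08e-05 and 0.000107). *Atp2a2*, the SERCA2 calcium pump, rose by 0.55 (SE 0.10, adjusted p = 0.00355, and 0.0733 without WH9), and the pacemaker channel gene *Hcn2* by 0.94 (adjusted p = 0.00134). *Myh6* rose by 0.33 (SE 0.09, adjusted p = 0.0207), a call lost without WH9 (adjusted p = 0.172) or WH10 (0.126). *Kcna5* (0.12), a potassium channel gene, and *Adrb1* (−0.19), the β1-adrenergic receptor gene, missed the threshold (edgeR adjusted p = 0.471 and 0.462). The potassium channel gene *Kcnd2* (1.14) was also higher, and the lower genes were the channel subunit gene *Kcnip2* (−0.81), the calcium release channel gene *Ryr2* (−0.40) and *Ucp3*, all named after their values were seen. Without WH9, 5 genes of the list were called, with *Kcnd2* (adjusted p = 0.156) and *Ryr2* (0.0997) among those lost, and *Ryr2* was also lost without WH10 (0.104).

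Cardiac genes that T3 is known to lower were read in the same way. Of 7 such genes 2 were higher and 1, *Thra* itself, was lower. The list's median log2 fold change was 0.12. *Myh7* rose from 6659 and 9185 normalized counts to 23086 and 23143, with a log2 fold change of 1.55 (SE 0.14, adjusted p = 0.000111), and *Pln*, which encodes the SERCA2 inhibitor phospholamban, rose by 0.59 (SE 0.15, adjusted p = 0.0143). The call of *Pln* was lost without WH9 (adjusted p = 0.121) and with DESeq2 (0.078). Genes known to rise and genes known to fall with T3 were thus both among the higher genes. Per kb of exon, *Myh7* made up 2.89% and 4.10% of the *Myh6* plus *Myh7* level in Ctrl and 7.69% and 7.76% in miR-128OE libraries (p = 0.333, two-sided exact permutation test, the smallest possible). Reads can be shared between these close paralogs.

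**Figure D5:**
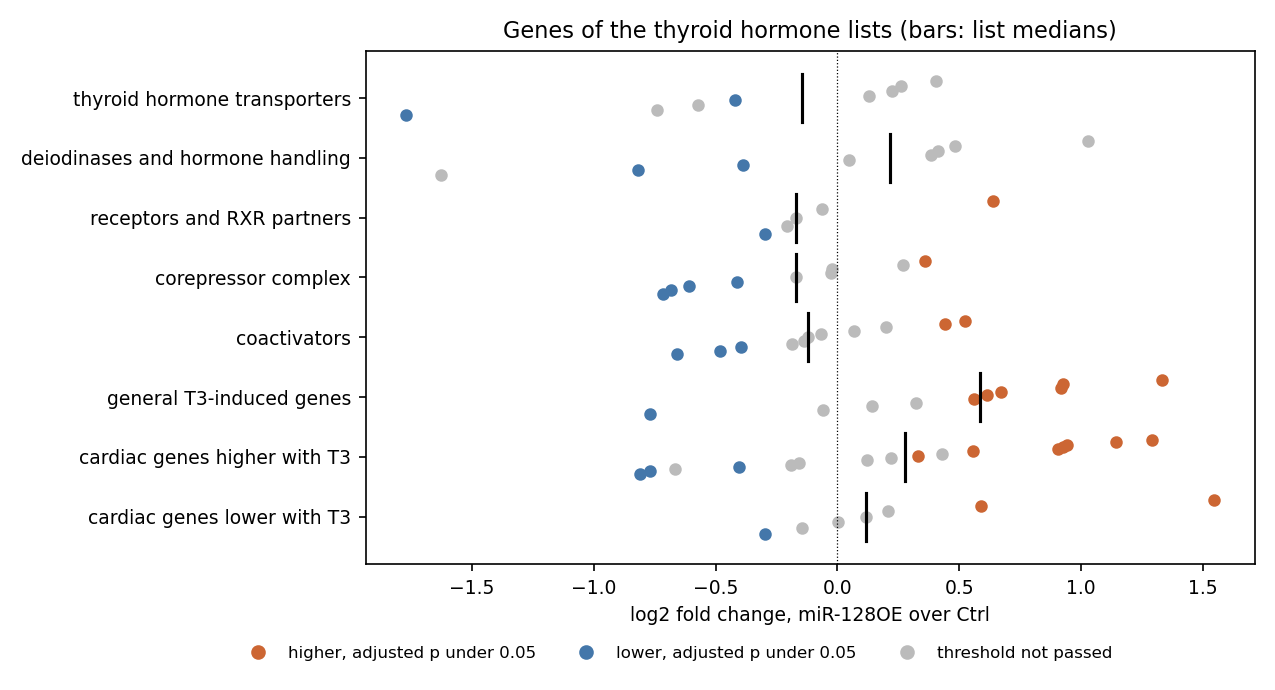
Log2 fold change of miR-128OE over Ctrl (horizontal axis) for each tested gene of the 8 lists (rows), colored by its call, with list medians as vertical bars. The median is largest for the general T3-induced genes (0.59), and the cardiac genes that T3 raises and lowers both hold higher and lower calls.

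Receptor binding sites are often direct repeats of AGGTCA, and 300 bases around the start (250 before and 50 after, RefSeq, GRCm38.p6) were searched on both strands for the members with a promoter entry. These were *Thrb*, *Dio2*, *Dio3*, *Slc16a10*, *Klf9* and *Thrsp*, with 7 windows. The DR4 repeat, 2 copies of that hexamer with 4 bases between them, was in 0 of 7 windows and in 0.015% of all 32851 windows. The hexamer AGGTCA alone was in 1 of the 7, against 16.3% of all windows. It lay in a *Thrb* window at chr14:17660776-17660781 on the plus strand, position −184 from the RefSeq start of that window. That start lies inside the GENCODE span of *Thrb* given above, which begins at 17660261, and so does the match. The match is shown with its flanks because it is the only one, with the hexamer in capitals.
*Thrb* promoter: gagagttgacAGGTCAagggaatagg
These windows do not reach enhancers, and 0 matches says only that the letters are not in this stretch.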

How the data were processed

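RNA-seq of P7 hearts covered 2 Ctrl and 2 miR-128OE libraries. The deposited values are raw counts per gene, which the authors obtained by TopHat2 alignment to mm10 after quality filtering, with counting in Bioconductor. Gene models, strand and the treatment of multiply mapped reads are not given in the sources used here. Entrez identifiers matched RefSeq symbols for 24374 of 24454 genes. Exon lengths, overlaps and 3′UTRs came from GENCODE M21 (GRCm38, the assembly of mm10).

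From the counts, edgeR 4.0.16 in R 4.3.3 was run with filterByExpr (10 counts, total 15), TMM factors, where TMM is the trimmed mean of M values, and the quasi-likelihood test, adjusted by Benjamini-Hochberg over 14266 genes. The SE is the log2 fold change over the square root of F, and 95% intervals use t quantiles with 9.436 degrees of freedom. The test was also run on counts simulated from its own fitted dispersions, which cannot check that model or the number of libraries. Log2 CPM used a prior count of 2. Chi-square per degree of freedom was 9.91 between Ctrl and 4.82 between miR-128OE replicates, above sampling noise. Floors and binomial intervals cover counting error only.

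The members and lists were chosen with earlier results of these data known. The genes named are the members, measured transporters, deiodinases, receptors and retinoid X receptors, the nearest gene of each member, and the 3 genes of smallest p in each other list with *Myh6*, *Myh7*, *Atp2a2*, *Pln*, *Slc2a4*, *Kcna5*, *Hcn2* and *Adrb1*. Other genes were named after their values were seen, and some results are not reported here. Alternatives were DESeq2 1.42.0, its size factors, total counts, the exact test, 2 other filters and each library left out.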

Additional observations from a re-analysis of the deposited data

How the results depend on the processing

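With 1 library left out, the number of higher members was 1 to 3 and that of lower members 0 to 1. Log2 fold changes were −0.36 to −0.22 for *Thra*, 0.25 to 0.83 for *Dio2*, 0.58 to 0.78 for *Hr*, 1.22 to 1.44 for *Thrsp* and −0.17 to 0.07 for *Klf9*, which turned positive without WH7 (0.0696) and without WH10 (0.0343). Called genes in the lists were 0 to 3 for transporters, 1 to 4 for deiodinases and hormone handling, 0 to 2 for receptors and partners, 3 to 6 for corepressors, 2 to 7 for coactivators, 3 to 8 for general T3-induced genes, 5 to 11 for cardiac genes higher and 1 to 4 for cardiac genes lower with T3. Over all genes 897 to 2654 were higher and 667 to 2384 lower, the lowest without WH9, against 2347 and 2143 in all 4 libraries. DESeq2 called 1 higher member, with *Hr* at a log2 fold change of 0.68 (adjusted p = 0.0509), 1 transporter, 1 deiodinase or handling gene, 1 receptor or partner, 4 general genes and 1410 lower genes. The edgeR exact test called 4 deiodinase or handling genes. With scaling by total counts the overall median log2 fold change went from −0.01 to −0.11 and 35.3% of called genes were higher in place of 52.3%, but no member changed its direction or call. The share of *Thrb* kept its direction with the longest transcript as length (0.225 percentage points) and with each library left out (0.236 to 0.45). The cause of these shifts was not tested. Depth did not allow a test of *Dio3* or *Dio1*. No paired analysis was possible because the labels give the libraries no shared replicate numbers.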

Other observations

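*Alas2*, the erythroid enzyme of heme synthesis, rose from 487 and 215 counts in WH7 and WH8 to 831 and 899 counts in WH9 and WH10 (log2 fold change 1.05, edgeR adjusted p = 0.00106), while the 4 globin genes of the erythroid list were at 0 in every library. The call of *Alas2* held in all alternative fits.

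Of 9 fibroblast markers *Lum*, a matrix proteoglycan gene, was higher (0.63, adjusted p = 0.0286), but not without WH9 (0.134) or WH10 (0.0819) or with DESeq2 (0.207). Without WH7 all 9 passed as higher, among them *Dpt* (0.79, adjusted p = 7.86e-06) and *Col3a1* (0.65, 3.1e-05), whereas without WH8 *Col1a1* (−0.41, 0.00388) and *Col1a2* (−0.28, 0.0395) passed as lower and *Lum* (0.32, 0.00767) as higher. Summed fibroblast markers were at 10366 and 6706 CPM in WH7 and WH8 and 9189 and 9907 CPM in WH9 and WH10. Atrial markers were not called in any of 6 genes by edgeR (unadjusted p under 0.05 in 0), with *Nppa*, the atrial natriuretic peptide gene, at 34013 and 1943 counts in WH7 and WH8 and 5217 and 12886 in WH9 and WH10. The sign depended on the Ctrl library. Without WH7, 5 of the 6 passed as higher, *Nppa* with a log2 fold change of 1.545 (adjusted p = 0.000863) and the atrial light chain gene *Myl7* with 1.65 (1.36e-08). Without WH8, 4 passed as lower, *Nppa* with −1.95 (6.99e-05) and *Myl7* with −1.14 (2.73e-07).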
